A study of Mus musculus with 2 samples.

Results

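The nuclear-encoded genes of oxidative phosphorylation were taken as every gene row whose symbol begins with Nduf, Uqcr, Atp5, Cox4i, Cox5, Cox6, Cox7 or Cox8, together with Sdha, Sdhb, Sdhc, Sdhd, Cyc1 and Cycs. They came to 92 of 15247 genes. By complex they comprised 36 complex I subunits, 8 complex I assembly factors, 4 complex II genes, 9 complex III genes, cytochrome c, 18 complex IV genes and 16 ATP synthase (complex V) genes. Row Atp5o.1 carries a symbol that the annotation gives to more than 1 gene, so its identity is uncertain. The cells were heart cells of C57BL/6 p16-FDR mice aged 20 to 22 months, sorted for mCherry. These mice carry an FLP recombinase and a diphtheria toxin receptor fused to mCherry, a reporter built to mark cells that use the p16 gene, so all cells compared here come from that strain and were chosen by the reporter. The labels give 2 samples, no reporter-negative, young or untreated group, and no count of animals per sample. Cell names carry 2 prefixes, Heart1 (266 cells) and Heart2 (1160 cells), used here as libraries. The names do not say which sample each is, and the p-values therefore measure only the spread between these libraries, which may be technical.

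Oxidative phosphorylation runs in the inner mitochondrial membrane. Complexes I and II take electrons from NADH and succinate, complex III passes them through cytochrome c to complex IV, which reduces oxygen, and complex V uses the resulting proton gradient to make ATP. Most subunits are encoded in the nucleus and imported, while a core set in complexes I, III, IV and V is encoded by mitochondrial DNA (the mt- transcripts). In heart muscle several complex IV subunits are replaced by muscle isoforms, whereas fibroblasts and macrophages use the widely expressed forms.

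Cells with at least 4 of 6 fibroblast markers and at most 1 of 8 macrophage markers were taken as fibroblasts, and cells with at least 5 of the 8 and at most 1 of the 6 as macrophages. This gave 204 fibroblasts (76.7% of cells) in Heart1 and 933 (80.4%) in Heart2, and 37 (13.9%) and 204 (17.6%) macrophages. The libraries shared 0 cell barcodes. Median depth was 11856 and 8770 unique molecular identifiers (UMIs, 1 per captured RNA molecule) per fibroblast and 8133 and 9568.5 per macrophage. Although the tissue was heart, the 14 cardiomyocyte markers summed to only 72.7 and 33.7 CPM (UMIs per 1000000 UMIs of the class) in fibroblasts and 213 and 176 in macrophages. The 6 mural cell markers found (pericyte and smooth muscle genes) summed to 177 and 73.9 CPM in fibroblasts, against 8.64 and 0.496 in macrophages.

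The nuclear genes made up nearly the same share of RNA in both classes. They took 1.92% of UMIs in Heart1 fibroblasts and 1.78% in Heart2 fibroblasts, against 1.82% and 1.82% in macrophages. Summed over all members, the log2 ratio of fibroblasts to macrophages was 0.08 in Heart1 and -0.03 in Heart2, so the libraries differed in sign. A median fibroblast had a UMI for 71 members in Heart1 and 64 in Heart2, and a median macrophage for 57 and 63. Complex I held the most UMIs, with 6387 and 5991 CPM in fibroblasts and 5353 and 5493 in macrophages. Complex V came to 5125 and 4679 CPM in fibroblasts and 4967 and 4849 in macrophages, and complex IV to 5008 and 4536 against 5307 and 5010. Fibroblasts thus sat above macrophages for complex I in both libraries, below them for complex IV, and on either side for complex V. Complex III summed to 1937 and 1858 CPM in fibroblasts and 1881 and 2072 in macrophages. The 4 complex II genes summed to 380 and 381 CPM in fibroblasts and 409 and 456 in macrophages. Sums by complex follow the number of genes as well as the level of each.

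**Figure D1:**
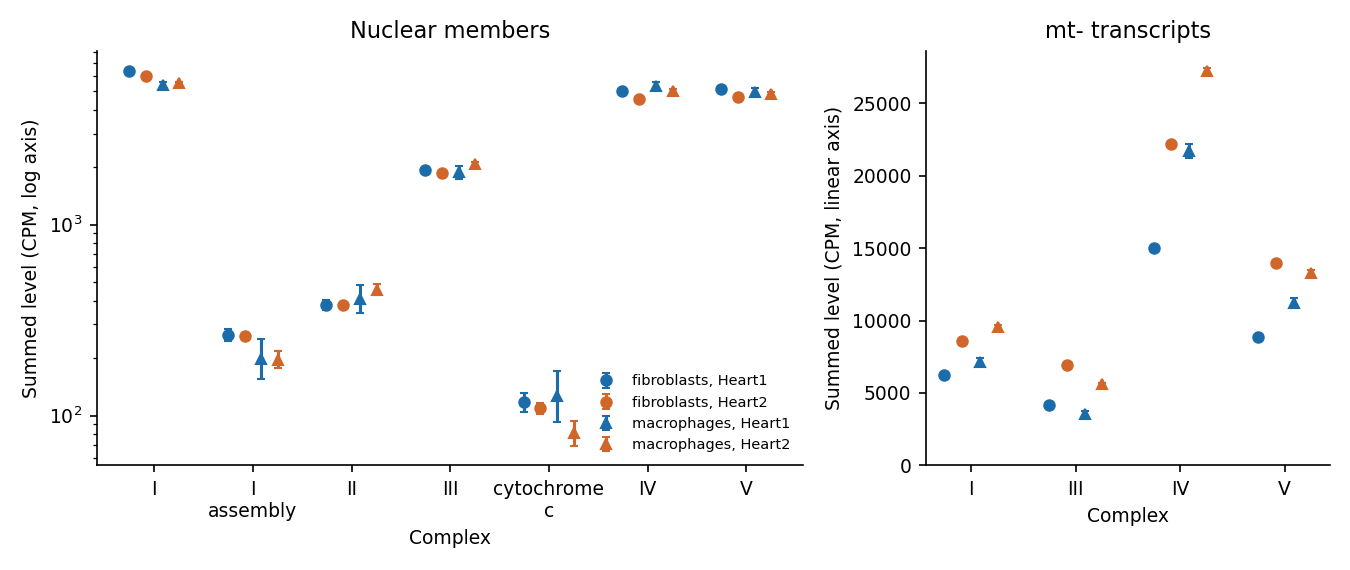
Summed level in CPM of the nuclear members of each complex (left, log axis) and of the mt- transcripts of each complex (right, linear axis). Circles are fibroblasts, triangles macrophages, blue Heart1 and orange Heart2, and bars are 95% Poisson intervals that cover counting error only. Complex I members lie higher in fibroblasts than in macrophages in both libraries (6387 and 5991 against 5353 and 5493 CPM), while mt- transcripts of complex IV lie lower in fibroblasts.

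The mt- transcripts varied more than the nuclear genes. The 13 mt- messenger transcripts took 3.43% and 5.17% of fibroblast UMIs in Heart1 and Heart2, and 4.36% and 5.56% of macrophage UMIs. No single cell exceeded 9.97%, so these shares cover only cells up to that level. Nuclear members per mt- UMI came to 0.560 and 0.345 in fibroblasts and 0.419 and 0.326 in macrophages, so the ratio was higher in fibroblasts within each library and higher in Heart1 within each class. mt-Co1, the catalytic subunit of complex IV, stood at 3211 and 5566 CPM in fibroblasts against 6572 and 8567 in macrophages. It was lower in fibroblasts by a log2 difference of -0.83 ± 0.12 (SE, 2 libraries; limma adjusted p = 5.86e-06). mt-Co2, which takes the electrons from cytochrome c, was at 5600 and 8654 CPM against 7358 and 9646 (-0.28 ± 0.10, limma adjusted p = 0.0375). mt-Cytb of complex III lay the other way, at 4168 and 6901 CPM in fibroblasts and 3558 and 5607 in macrophages, and missed the threshold (0.26 ± 0.11, limma adjusted p = 0.0574). Of the 13 transcripts 2 were lower and 0 higher, where 17% and 25.7% of all genes tested were. The median difference was -0.14.

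Both shares moved with depth. Cells of each class and library were split into 3 equal bins by their UMIs. In Heart2 fibroblasts the nuclear share was 1.61%, 1.78% and 1.87% from the lowest to the highest bin, while the mt- share was 5.84%, 5.35% and 4.72%. In Heart1 macrophages, with 12 or 13 cells per bin, the nuclear share went from 1.33% to 1.99% and the mt- share from 5.29% to 4.03%. The nuclear share was higher and the mt- share lower in the deepest bin than in the shallowest in all 4 class and library combinations. The part of depth in the differences between libraries was not tested.

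**Figure D2:**
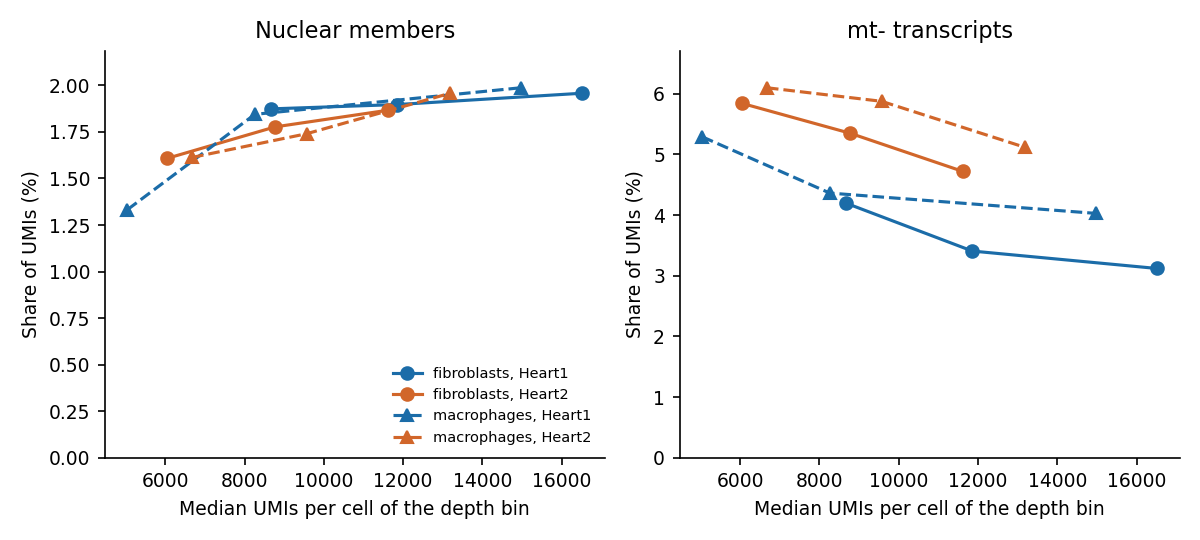
Share of UMIs in percent of the nuclear members (left) and of the mt- transcripts (right) against the median UMIs per cell, for 3 equal bins of cells by depth. Solid lines with circles are fibroblasts, dashed lines with triangles macrophages, blue Heart1 and orange Heart2. In Heart2 fibroblasts the nuclear share goes from 1.61% to 1.87% and the mt- share from 5.84% to 4.72% with depth.

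Gene by gene, few members separated the classes. UMIs were summed per library and class, scaled to CPM, and compared as log2(CPM + 5) with limma, which gives the fold on that scale and understates changes of low genes. Of the 92 members 86 had a mean of at least 10 CPM and were tested. At an adjusted p under 0.05, 9 members (10.5%) were higher in fibroblasts, where 25.7% of all 8788 genes tested were higher. Another 3 members (3.49%) were lower, where 17% of all genes were. The members' share called in either direction was 14%, against 42.8% of all genes. Without a term for the library the member counts were 5 higher and 1 lower, with the shares of all genes not given here. Of the 86 members, 74 had a difference within 0.5 of zero, and the median member difference was 0.11, beside 0.16 for all genes. Higher in both libraries were 42 members (48.8%; 48.1% of all genes), and lower in both were 24 (27.9%; 31.4%).

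Among complex I subunits 5 of 36 were higher in fibroblasts and 1 was lower, where 25.7% and 17% of all genes tested were. Without regard to the test, 25 of the 36 were higher in both libraries, where 48.1% of all genes were. The median difference of the 36 was 0.23. All 6 that passed are accessory subunits, which surround the catalytic core and stabilise it. Ndufb2 was at 177 and 142 CPM in fibroblasts of Heart1 and Heart2, against 74.9 and 103 in macrophages, with no overlap between classes (0.82 ± 0.23, limma adjusted p = 0.00639). The annotation places Gm42420 on the same strand there, and Gm16272 and Braf on the other. Braf was at 26.8 and 30.8 CPM in fibroblasts and 11.5 and 11.4 in macrophages. The part of these genes in the Ndufb2 values was not tested. Ndufa5, a subunit of the matrix arm, was at 220 and 217 CPM against 124 and 154 (0.64 ± 0.20). Ndufa11, a membrane arm subunit, was at 215 and 184 CPM against 124 and 137 (0.59 ± 0.21). Each was high in both fibroblast sums. Ndufs5 was at 267 and 226 CPM against 158 and 164 (0.59 ± 0.20), and Ndufb11 at 279 and 259 against 173 and 195 (0.53 ± 0.19). The exception in direction was Ndufb8, also of the membrane arm, at 194 and 183 CPM in fibroblasts and 254 and 278 in macrophages (-0.48 ± 0.19, limma adjusted p = 0.0498). Under median ratio scaling Ndufb2, Ndufa5, Ndufa11, Ndufs5, Ndufb11 and Ndufb8 had adjusted p of 0.0505, 0.0705, 0.0974, 0.0867, 0.122 and 0.0512 and so lost the call. Ndufb8 was called in 5 of 11 alternative settings, and the other 5 in 8 or 9 of them. Ndufa13, the complex I member with the most UMIs, was at 426 and 369 CPM against 354 and 328 and did not pass (0.21 ± 0.18).

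Of the 8 complex I assembly factors, which build the complex and are not part of it, 7 were tested. Of these 1 passed, where 42.8% of all genes tested did. Ndufaf4 (chromosome 4, 24898083 to 24905001, plus strand, GENCODE annotation of GRCm38) was at 40.6 and 52.1 CPM in fibroblasts and 11.5 and 23.3 in macrophages. The macrophage values rest on 4 and 47 UMIs. The difference was 1.24 ± 0.28 (limma adjusted p = 0.00108). After each cell was thinned to 3000 UMIs it was 0.57, with an adjusted p of 0.336. Ndufaf8, the assembly factor with the most UMIs, was at 73.8 and 66.6 CPM against 83.6 and 73.9 (-0.15 ± 0.23).

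Start-site sequence was read for the members from RefSeq promoters of GRCm38.p6, from 250 bases before to 50 after each start, and 73 of 92 matched by symbol. The motif of NRF1, a factor long known to bind promoters of respiratory chain genes, was searched on both strands as its core CGCATGCG and, with 1 letter open and so including that core, as CGCNTGCG. The open form was present in 28 of 73 members (38.4%), against 9.22% of 27025 genes, and the core itself in 12 (16.4%) against 2.07%. The 27025 are all genes with a promoter entry, not limited to genes found in these cells. A background of expressed genes was not tested. The letters AANATGGC, for YY1, were in 18 members (24.7%) against 6.96% of genes, CCGGAAGT, for ETS factors, in 5 (6.85%) against 4.31%, and TATAAA in 6 (8.22%) against 15.7%. A gene counted if any of its windows held the letters. Of the members called between classes, 6 of those higher in fibroblasts had a promoter entry, and 4 held CGCNTGCG (Ndufa5, Ndufa11, Ndufaf4 and Ndufs5). Of the 3 lower members 0 held it, and of the 64 matched members with no call 24 did. Ndufaf4 (chr4:24897833-24898132, plus strand) is shown as the assembly factor that passed, with the CGCNTGCG match in capitals. Cycs (chr6:50566520-50566819, minus strand) is shown as cytochrome c, with its match in capitals. Cox5a (chr9:57520982-57521281, plus strand) and Ndufb2 (chr6:39592315-39592614, plus strand) are shown as the one of the complex IV members called lower that differed most and the complex I subunit with the largest difference, without a match. All are written 5′ to 3′ along the strand of the gene.
Ndufaf4: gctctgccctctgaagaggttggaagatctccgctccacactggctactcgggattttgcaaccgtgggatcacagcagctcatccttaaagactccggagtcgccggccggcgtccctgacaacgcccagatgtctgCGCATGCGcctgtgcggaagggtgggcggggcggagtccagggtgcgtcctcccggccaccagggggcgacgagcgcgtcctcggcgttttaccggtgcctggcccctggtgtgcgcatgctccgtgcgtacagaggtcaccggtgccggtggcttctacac
Cycs: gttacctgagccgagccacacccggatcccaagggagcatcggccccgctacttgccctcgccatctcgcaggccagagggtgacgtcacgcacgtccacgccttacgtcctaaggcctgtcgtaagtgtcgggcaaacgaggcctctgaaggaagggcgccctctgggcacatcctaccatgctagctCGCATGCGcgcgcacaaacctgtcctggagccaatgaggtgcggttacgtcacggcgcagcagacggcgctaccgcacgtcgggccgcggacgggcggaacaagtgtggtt
Cox5a: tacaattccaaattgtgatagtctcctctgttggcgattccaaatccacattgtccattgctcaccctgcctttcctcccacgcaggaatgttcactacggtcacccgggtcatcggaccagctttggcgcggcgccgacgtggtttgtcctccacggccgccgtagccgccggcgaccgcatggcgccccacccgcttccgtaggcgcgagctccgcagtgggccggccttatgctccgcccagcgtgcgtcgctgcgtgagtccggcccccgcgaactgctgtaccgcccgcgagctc
Ndufb2: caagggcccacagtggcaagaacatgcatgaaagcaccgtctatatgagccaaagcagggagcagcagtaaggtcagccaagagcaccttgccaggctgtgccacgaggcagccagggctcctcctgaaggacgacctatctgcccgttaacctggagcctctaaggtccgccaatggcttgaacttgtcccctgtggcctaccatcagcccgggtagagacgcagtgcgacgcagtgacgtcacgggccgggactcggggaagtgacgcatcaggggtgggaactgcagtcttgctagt
The Ndufaf4 match begins 112 bases before the start site and the Cycs match 61 bases before it. These are matches of letters, not shown to be bound sites.

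In complexes II, III and V and for cytochrome c, no member passed (0 of 4, 0 of 9, 0 of 15 tested and 0 of 1). Of all genes tested 42.8% did. In complex II, which also works in the tricarboxylic acid cycle, the flavoprotein Sdha was at 108 and 117 CPM in fibroblasts against 115 and 95.2 in macrophages. The iron-sulfur subunit Sdhb was at 136 and 125 CPM against 158 and 173 (-0.33 ± 0.21). Its membrane anchors gave 52.5 and 53.9 against 51.9 and 81.8 CPM for Sdhc, and 83.5 and 85.0 against 83.6 and 107 for Sdhd. The classes overlapped in Sdha, Sdhc and Sdhd and lay apart in Sdhb, and none of the 4 differences passed. In complex III, the hinge protein Uqcrh was at 426 and 378 CPM against 426 and 372. Cyc1, the cytochrome c1 subunit, was at 113 and 105 CPM against 72.0 and 105. Cycs, the electron carrier between complexes III and IV, was at 117 and 109 CPM in fibroblasts and 127 and 80.8 in macrophages, so the classes overlapped. In complex V, the epsilon subunit gene Atp5e was at 541 and 472 CPM against 588 and 541. The 3 genes for the c subunit of the ATP synthase rotor, Atp5g1, Atp5g2 and Atp5g3, encode the same mature protein. Atp5g1 gave 36.4% and 34.4% of their UMIs in fibroblasts and 36.7% and 31.9% in macrophages. Atp5g2 gave 43.2% and 40.2% against 42.6% and 48.8%, and Atp5g3 20.5% and 25.4% against 20.7% and 19.3%. Atp5g2 was the leading form in each of the 4 sums.

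Complex IV held the members that differed most between classes. Of its 14 tested members 3 were higher in fibroblasts and 2 lower, where 25.7% and 17% of all genes tested were. The median difference of the 14 was -0.22. Ndufa4l2, a paralog of the complex IV subunit Ndufa4 that is known as a gene induced at low oxygen, was at 103 and 175 CPM in fibroblasts. It had 0 UMIs in the 37 Heart1 macrophages and 1 UMI in the 204 Heart2 macrophages. It was seen in 46.1% and 59.6% of fibroblasts and in 0 and 1 macrophage. The count of 0 in Heart1 was read as allowing up to 3 UMIs (8.64 CPM), a floor against which the level was 11.9-fold higher in fibroblasts. The lower bound of the 95% counting interval of the Heart1 ratio of fibroblasts to macrophages was 9.61. In Heart2 the ratio was 353, with a 95% counting interval of 63.3 to 13972. The fitted difference was 4.73 ± 0.30 (limma adjusted p = 5.29e-11), and its size depends on the added 5 CPM. Ndufa4l2 lies at chromosome 10, 127514967 to 127517154, plus strand, and overlaps Shmt2 on the other strand. Shmt2 was at 26.1 and 20.8 CPM in fibroblasts and 8.64 and 11.4 in macrophages, so its row was not at 0 in the macrophages.

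Cox4i2, the tissue-restricted form of the complex IV subunit 4, known from lung and the vessel wall, was at 67.1 and 17.6 CPM in fibroblasts. Each macrophage sum held 1 UMI of it (2.88 and 0.496 CPM). The ratio was 23.3 in Heart1 (95% counting interval 4.13 to 925) and 35.6 in Heart2 (6.29 to 1415), and the fitted difference was 2.62 ± 0.39 (limma adjusted p = 1.31e-05). Cox4i2 lies at chromosome 2, 152754173 to 152765037, plus strand. The mural cell markers moved in the same direction between these classes (177 and 73.9 against 8.64 and 0.496 CPM, with Acta2, Kcnj8, Abcc9 and Notch3 at 0 in both macrophage sums), and their part in the Cox4i2 and Ndufa4l2 differences was not tested. The widely expressed partners lay lower in fibroblasts, without overlap, and did not pass. Cox4i1 was at 578 and 491 CPM in fibroblasts and 717 and 607 in macrophages, and Ndufa4 at 346 and 373 against 392 and 491. As a share of the UMIs of each pair, Cox4i2 made up 10.4% and 3.47% in fibroblasts and 0.400% and 0.0816% in macrophages. Ndufa4l2 made up 22.9% and 31.9% of its pair in fibroblasts, and 0% and 0.101% in macrophages.

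Cox5a, which binds next to subunit 4 of complex IV, was the largest difference in the other direction. It was at 216 and 198 CPM in fibroblasts and 360 and 347 in macrophages (-0.76 ± 0.19, limma adjusted p = 0.00212). It was seen in 87.3% and 76.8% of fibroblasts and 89.2% and 87.7% of macrophages. Cox5a lies at chromosome 9, 57521274 to 57532426, plus strand, and the annotation places Gm26631 on the other strand there. Cox6b1, on the intermembrane side, was at 386 and 341 CPM against 568 and 491 (-0.53 ± 0.17, limma adjusted p = 0.0147). Cox6c was at 708 and 611 CPM against 470 and 499 (0.44 ± 0.17, limma adjusted p = 0.0383). Cox6b1 lost the call without the library term (adjusted p = 0.0716) and after thinning (0.143). Cox6c was called in 6 of 11 alternative settings, and its adjusted p was 0.201 under median ratio scaling. Of the 12 members called between the classes, Ndufa4l2, Cox4i2 and Cox5a were called in all 11. Cox8a, the member with the most UMIs in complex IV, was level at 719 and 700 CPM against 680 and 684. For Cox7a2 the values were 355 and 306 against 334 and 307 CPM, and for Cox7a2l 220 and 190 against 291 and 217. Neither passed.

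**Figure D3:**
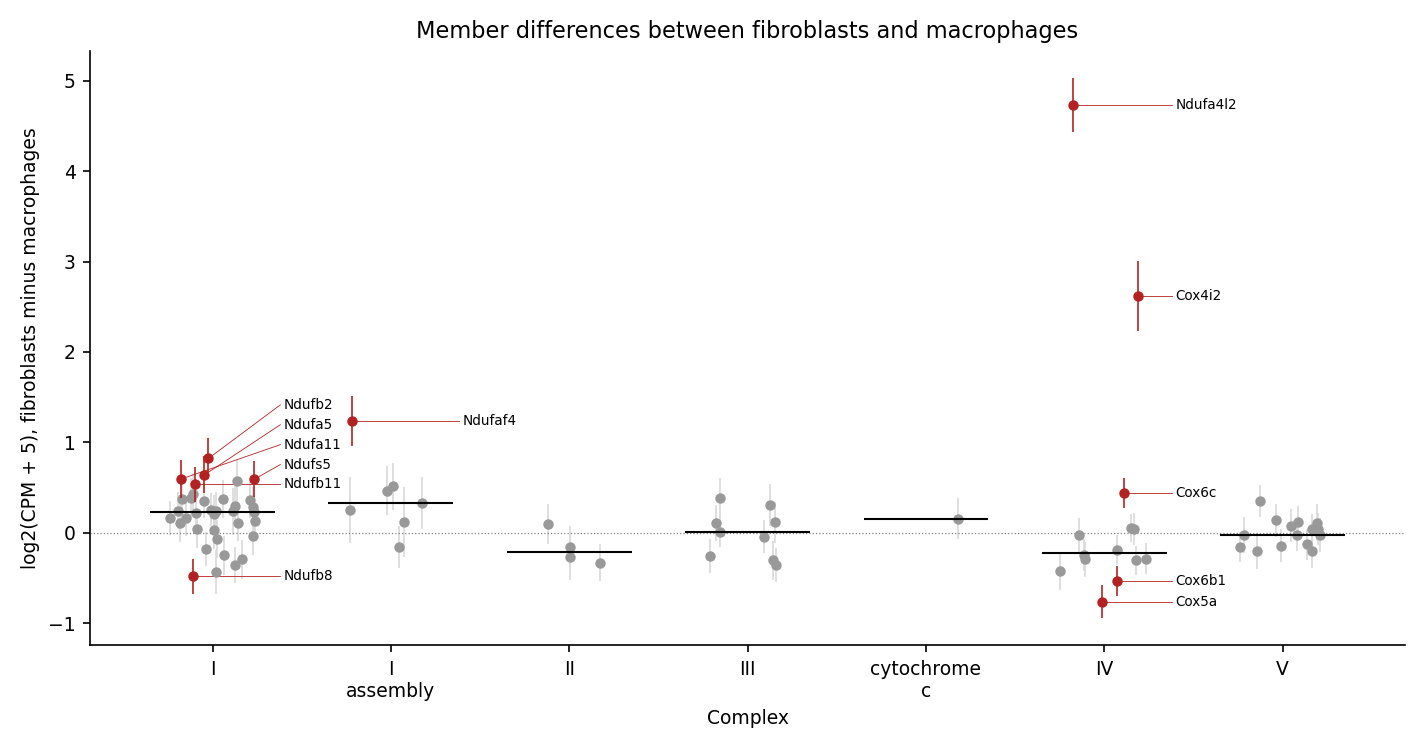
Difference in log2(CPM + 5) between fibroblasts and macrophages for the 86 members tested, by complex. Points are genes, bars are SE, black lines are medians by complex, and red marks a limma adjusted p under 0.05. Ndufa4l2 (4.73) and Cox4i2 (2.62) stand above the other members, of which 74 lie within 0.5 of zero.

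The muscle isoforms of complex IV were near 0 in both classes, and with Cox6b2, Ndufaf5 and Atp5s they were the 6 members left out for low values. Cox6a2 was at 1.86 and 1.56 CPM in fibroblasts and 14.4 and 9.92 in macrophages. Cox7a1 was at 3.73 and 6.60 CPM against 8.64 and 13.4, and Cox8b at 4.10 and 8.76 against 8.64 and 2.97. Against their widely expressed partners, Cox6a2 made up 1.19% and 1.07% of Cox6a1 and Cox6a2 UMIs in fibroblasts and 6.10% and 5.08% in macrophages. Fitted without the filter, Cox6a2 was lower in fibroblasts (-1.34 ± 0.35, limma adjusted p = 0.00930). This rests on 5 and 13 UMIs in fibroblasts and 5 and 20 in macrophages, with 4 of the Heart1 macrophage UMIs in 1 cell. Of the macrophages with a Cox6a2 UMI, 2 of 2 and 15 of 18 also held a UMI of a cardiomyocyte marker, which 56.8% and 57.8% of all macrophages did, against 35.3% and 17.8% of fibroblasts. For Cox7a1 the counts were 2 of 2 and 15 of 24 macrophages and 3 of 10 and 12 of 49 fibroblasts. For Cox8b they were 2 of 2 and 6 of 6 macrophages and 6 of 10 and 11 of 59 fibroblasts. The part of cardiomyocyte RNA in these values was not tested. Cox6a2 also overlaps Itgad on the other strand. Cox6b2, known from testis, was at 1.52% and 1.97% of its pair with Cox6b1 in fibroblasts and 1.01% and 2.75% in macrophages.

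The fibroblast subsets were then compared, as cells with at least 1 UMI of a marker gene against gated fibroblasts with 0. Wif1 (a secreted Wnt inhibitor) was seen in 38 and 10 fibroblasts, Thbs4 (a matrix thrombospondin) in 28 and 16, and Pi16 (a marker of adventitial fibroblasts) in 184 of 204 and 849 of 933. Wif1 and Thbs4 were found together in 2 and 1 cells. Of the Thbs4 positive cells 96.4% and 100% were also Pi16 positive. Of the Wif1 positive cells 73.7% and 60.0% were. Pi16 positive cells are therefore most of the fibroblasts, and 13 of the 204 Heart2 macrophages also held a Pi16 UMI.

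The nuclear share of UMIs was slightly higher in Wif1 positive than in negative cells of both libraries, and 2 complex IV genes passed the test. The members took 1.98% and 2.01% of UMIs in the positive cells and 1.91% and 1.78% in the negative ones. The mt- transcripts took 3.16% and 4.59% against 3.49% and 5.17%. Median depth was 11902 and 12034 UMIs in the positive cells against 11850 and 8691, and the part of depth was not tested. Of 87 members tested, 1 was higher (1.15%, against 1.88% of all genes) and 1 was lower (1.15%, against 1.95%), so 2 passed in either direction (2.3%, against 3.83%). Without regard to the test, 33 members (37.9%) were higher in the positive cells of both libraries, against 25% of all genes, and 22 (25.3%) were lower in both, against 34.7%. Cox4i2 was the higher one, at 204 and 134 CPM in the positive cells of Heart1 and Heart2 against 36.5 and 16.0 in the negative cells. It was seen in 26 of 38 and 5 of 10 positive cells, and in 19.3% and 8.78% of negative cells. The difference was 2.54 ± 0.29 (limma adjusted p = 0.00183). Cox4i2 thus made up 26.3% and 19.0% of the subunit 4 pair in the positive cells and 5.92% and 3.15% in the negative cells, while Cox4i1 was at 572 and 571 CPM against 579 and 490.

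Ndufa4l2 went the other way in the Wif1 positive cells. It was at 10.2 and 67.2 CPM against 124 and 177 in the negative cells, with 5 and 8 UMIs behind the positive values. It was seen in 2 of 38 and 3 of 10 positive cells and in 55.4% and 59.9% of negative cells (-2.20 ± 0.41, limma adjusted p = 0.0218). Without the library term the adjusted p was 0.0876 for Cox4i2 and 0.316 for Ndufa4l2, while the 2 libraries agreed in sign. The size of the Ndufa4l2 difference was -3.08 in Heart1 and -1.33 in Heart2. The mural cell markers also stood higher in the Wif1 positive cells, at 439 and 210 CPM against 118 and 72.0, with Rgs5 at 135 and 33.6 against 2.28 and 0.244 CPM and Notch3 at 0 in the positive cells of both libraries. Their part in the Cox4i2 and Ndufa4l2 values was not tested. Cox6c, at 989 and 1202 CPM against 645 and 602, was the nearest to the threshold of the rest (0.80 ± 0.19, limma adjusted p = 0.0642), and passed after thinning to 3000 UMIs.

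In Thbs4 positive cells Ndufa4l2 was again lower, and Cox4i2 did not pass. Of 87 members 0 were higher (2.17% of all genes were) and 1 was lower (1.15%, against 2.72% of all genes), which was also the count in either direction (4.88% of all genes). In both libraries 26 members (29.9%) were higher and 24 (27.6%) lower, beside 29.4% and 29.7% of all genes. Ndufa4l2 was at 45.8 and 42.5 CPM in the positive cells against 116 and 179 in the negative cells, from 10 of 28 and 3 of 16 positive cells. The difference was -1.60 ± 0.26 (limma adjusted p = 0.000509), and without the library term the adjusted p was 0.154. Cox4i2 was at 83.6 and 23.6 CPM against 63.3 and 17.5 (0.37 ± 0.29), and in Heart2 all 5 of its UMIs came from 1 cell. Cycs was at 157 and 217 CPM against 108 and 107, above the negative cells in both libraries, and just missed the threshold (0.76 ± 0.22, limma adjusted p = 0.0519). The depth of the positive cells was greater, with a median of 16060 and 13219.5 UMIs against 11565 and 8691. All 13 mt- differences were negative, 10 of them in both libraries, with a median of -0.23 and 0 passing. The mt- share was 3.07% and 3.91% against 3.51% and 5.20%. Among all fibroblasts it was also lower in the deeper bins, and the part of depth here was not tested.

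Pi16 positive and negative fibroblasts differed in no member by the test. Of 88 members 0 were higher (0.666% of all genes) and 0 lower (0.654%) by limma, 1.32% of all genes passing in either direction, with 2 at an unadjusted p under 0.05, and 0 also when each sum was weighted by the UMIs behind it. In both libraries 35 members (39.8%) were higher in the positive cells, against 26.7% of all genes, and 17 (19.3%) lower, against 27.8%. The nuclear share was 1.93% and 1.78% in the positive cells and 1.86% and 1.77% in the negative ones. Median depth was 11905.5 and 8872 UMIs in the positive cells against 11002.5 and 7397.5, and the part of depth was not tested. Cox4i2 was at 62.2 and 15.8 CPM in the positive cells against 121 and 39.8 in the negative cells, lower in both libraries (-1.0 ± 0.25, limma adjusted p = 0.0707). Fibroblasts were also split at the median Pi16 level of their library, a choice made after seeing the data. The Cox4i2 difference was then -0.95 with a limma adjusted p of 0.0199, and it was the 1 member called. The share of all genes called under that split is not given here. The mural cell markers were at 145 and 65.6 CPM in the positive cells against 523 and 171 in the negative cells, and their part was not tested. Of the 20 and 84 Pi16 negative cells, 10 and 4 were Wif1 positive. With Wif1 positive cells set aside, a choice made after seeing the data, Cox4i2 had 0 UMIs in the 10 Pi16 negative cells of Heart1 and 38.2 CPM in the Pi16 positive cells. In Heart2 it was at 35.8 CPM in the 80 negative cells and 14.3 in the positive ones. The direction was thus the other way in Heart1, where it rests on 0 UMIs in 10 cells, and unchanged in Heart2. The part of the Wif1 positive cells was not tested. Cox8b, at 2.85 and 8.22 against 17.9 and 15.3 CPM, and Ndufa3, a complex I accessory subunit at 90.0 and 114 against 40.2 and 110 CPM, had differences of the same sign in both libraries (-1.08 ± 0.54 and 0.56 ± 0.26), and neither passed. Ndufa4l2 was at 109 and 171 CPM against 31.3 and 225, higher in the positive cells of Heart1 and lower in those of Heart2 (0.64 ± 0.34), and did not pass.

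**Figure D4:**
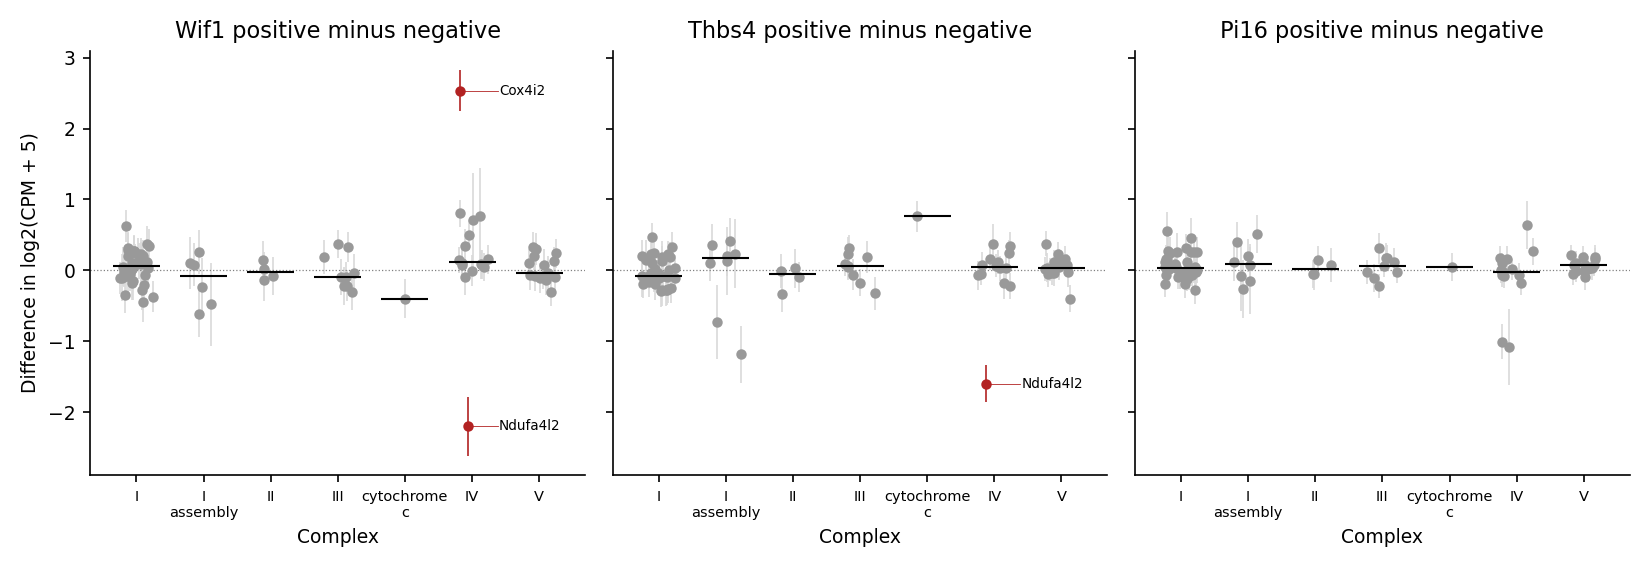
Difference in log2(CPM + 5) between marker positive and negative fibroblasts for Wif1, Thbs4 and Pi16, by complex. Points are member genes, bars are SE, black lines are medians by complex, and red marks a limma adjusted p under 0.05. Ndufa4l2 lies at -2.20 in the Wif1 and -1.60 in the Thbs4 comparison, Cox4i2 at 2.54 in the Wif1 comparison, and no member is marked for Pi16.

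The Wif1 and Thbs4 comparisons share most of their negative cells, and Pi16 positive cells make up most of both sides, so the comparisons are not independent of each other. Across them Cox4i2 was highest in Wif1 positive cells of both libraries, and Ndufa4l2 was lowest in the Wif1 positive cells of Heart1 and the Thbs4 positive cells of Heart2. In single cells, the direction for the pair differed between the libraries only with all fibroblasts and all UMIs counted. Of fibroblasts with a Cox4i2 UMI, 34.5% in Heart1 and 81.4% in Heart2 also held Ndufa4l2, against 50.7% and 57.4% of those without. When Wif1 positive cells were set aside, the shares were 62.5% (20 of 32) against 53.7% in Heart1 and 85.2% (69 of 81) against 57.5% in Heart2. The exact 95% intervals were 43.7% to 78.9% and 44.9% to 62.4% in Heart1, and 75.6% to 92.1% and 54.1% to 60.8% in Heart2. Thinned to 3000 UMIs per cell, with Wif1 positive cells included, the shares were 28.6% against 25% in Heart1 and 48.5% against 36.0% in Heart2, with overlapping intervals in both. These intervals cover counting error only.

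**Figure D5:**
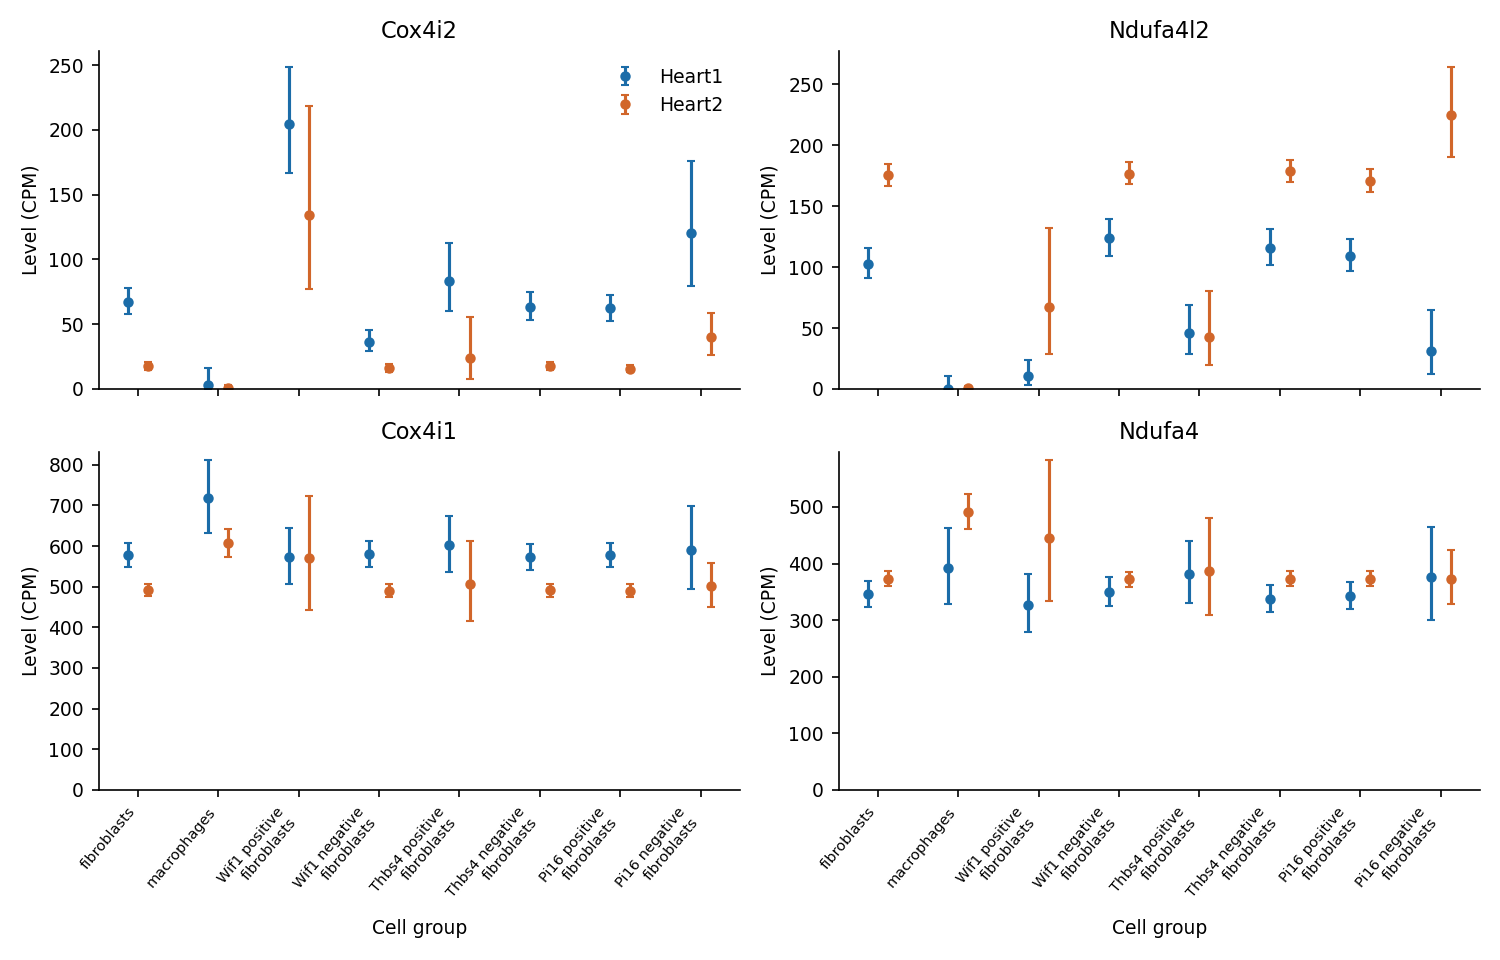
Level in CPM of Cox4i2 and Ndufa4l2 (top) and of their widely expressed partners Cox4i1 and Ndufa4 (bottom) in each cell group, with Heart1 in blue and Heart2 in orange and 95% Poisson intervals that cover counting error only. Cox4i2 peaks in Wif1 positive fibroblasts (204 and 134 CPM) and Ndufa4l2 is near 0 in macrophages, while the partners stay above 300 CPM in each group.

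Between libraries, fibroblast members lay slightly higher in Heart1, where 58 of 86 (67.4%) were above Heart2, beside 37.1% of all genes tested. In macrophages 42 of 86 (48.8%) were, beside 45.4%. Of these 86, which had passed the filter on low values, 1 (1.16%) was at least 2-fold apart in fibroblasts, beside 3.56% of all genes tested, and it was Cox4i2 (a log2 difference of 1.67). In macrophages 0 were, beside 8.05% of all genes. The Heart1 fibroblasts held more Wif1 positive cells (18.6% against 1.07%). Among Wif1 negative cells Cox4i2 was at 36.5 against 16.0 CPM. The part of the Wif1 positive cells in the Cox4i2 difference between libraries was not tested. Ndufa4l2 was the lowest in Heart1 among fibroblast values (a log2 difference of -0.74, from 103 and 175 CPM), with too few UMIs in macrophages to compare. The difference of Heart1 from Heart2 was -0.39 in fibroblasts and -0.45 in macrophages for Ndufa3, and -0.32 and -0.78 for Ndufaf4. It was -0.37 and -0.41 for Uqcrfs1, the Rieske iron-sulfur protein of complex III. Cox7b was higher in Heart1, by 0.43 and 0.32. The mt- transcripts were lower in Heart1 in each class for all 13 transcripts, with median differences of -0.63 in fibroblasts and -0.47 in macrophages. With 1 library on each side these have no test.

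Genes that serve the same pathway outside the members were also counted, from lists of regulators, assembly factors, tricarboxylic acid cycle, glycolysis, carriers and the mitochondrial ribosome. The shares of all genes to read these against are 25.7% higher and 17% lower. Of 31 genes tested from the list of other assembly factors, which also holds the inhibitor gene Atpif1, 5 were higher in fibroblasts. The 2 lower were Atpif1 and Coa4. Of 74 mitochondrial ribosome genes 5 were higher and 0 lower, and of 17 tricarboxylic acid cycle genes 3 were higher and 1 lower. Of 8 regulators of mitochondrial gene expression 0 passed. Glycolysis had 3 of 15 higher and 5 lower. Atpif1, which inhibits the ATP synthase when it runs in reverse, was at 215 and 182 CPM in fibroblasts against 412 and 468 in macrophages (-1.13 ± 0.19, limma adjusted p = 4.76e-05). Of the 7 carriers and porins 1 was higher and 2 were lower. The adenine nucleotide exchangers split, with Slc25a4 at 714 and 540 against 254 and 162 CPM (1.59 ± 0.18) and Slc25a5 at 178 and 162 against 349 and 380 (-1.08 ± 0.19). Ucp2, an uncoupling protein family carrier, was at 20.1 and 6.84 CPM against 890 and 804 (-5.62 ± 0.24). In the subsets, the complex III assembly factor Uqcc2 was higher in Thbs4 positive cells (0.67 ± 0.19, limma adjusted p = 0.0488) and in Pi16 positive cells (0.99 ± 0.19, limma adjusted p = 0.0130). Ldhb, a lactate dehydrogenase subunit, was lower in Thbs4 positive cells, at 43.9 and 33.2 against 81.2 and 112 CPM (-1.22 ± 0.28, limma adjusted p = 0.0110). No other gene of these lists passed in a subset.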

How the data were processed

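Reads were processed with Cell Ranger 3.0.2 on mm10, per the submitters' processing notes; the software behind the normalization is not given in the sources used here. In 1 table the authors deposited natural log values, ln(1 + UMIs per 10000), with cells of both libraries. Undoing the log gave whole multiples of each cell's lowest value for 4459440 of 4459440 values (within 1e-06), so UMIs were recovered. Every column was used. UMIs were summed per library and class (at least 20 cells) or subset (at least 10), scaled to CPM, and tested with limma 3.58.1 (R 4.3.3; trended, empirical Bayes) on log2(CPM + 5) for genes with a mean of at least 10 CPM. The library was a block, because the sums compared come from the same library. Benjamini-Hochberg adjustment ran over all genes tested, including genes outside the members. Each subset's own marker gene was left out of its fit. The fits were tested on simulated data, where the subset fits made more false calls than the adjusted p allows, fewer with each sum weighted by its UMIs. Scrublet predicted 8 doublets (0.561%), of which 1 was a gated fibroblast, and all were kept. Summed UMIs ranged from 119017 (Wif1 positive, Heart2) to 8331181 (fibroblasts, Heart2). Intervals are exact Poisson or Clopper-Pearson at 95%.

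The members, lists and subsets were chosen with earlier results of these data known. Genes named were those with the largest called difference in each complex (up to 4), the member with the most UMIs in each, the complex II, Cyc1 and Cycs genes, fixed paralog sets, the largest subset and library differences, and the mt- transcripts. Ndufb8, Ndufb11, Cox6c in Wif1 positive cells, Atpif1 and the carriers, and the genes of other lists were named after their values were seen. Alternatives covered pseudocounts, filter, scaling, thinning, gates, doublets, weights and the block.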

Additional observations from a re-analysis of the deposited data

Results flagged for a closer look

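The 48 cells outside both gates (25 in Heart1 and 23 in Heart2) entered no comparison, and 3 values in them lay above the level that a count of 0 allows. Ndufa4l2 was at 21.9 CPM in Heart1 (6 UMIs, all from 1 cell) and 38.7 CPM in Heart2 (11 UMIs from 3 cells). Cox4i2 was at 36.6 CPM in Heart1 (10 UMIs, all from 1 cell), and 0 UMIs were seen in Heart2.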

How the results depend on the processing

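Each class comparison rests on 2 libraries and 1 residual degree of freedom, with the spread pooled over genes, and leaving out a library left values with no test. Without the replicate block, members called between fibroblasts and macrophages went from 9 to 5 higher and from 3 to 1 lower, the Wif1 counts went from 1 and 1 to 0 and 0, and the Thbs4 count from 1 lower to 0. Thinning to 3000 UMIs gave 5 higher and 1 lower between classes and 2 higher for Wif1, and median ratio scaling gave 3 higher between classes. In the Thbs4 comparison 1 member was higher with a pseudocount of 20 CPM, with no filter, under median ratio scaling, with totals without mt- transcripts and without predicted doublets. There 2 were lower with no filter and with totals without mt- transcripts. Splitting Pi16 at its median gave 1 lower. The summed complex IV log2 ratio, -0.11, was -0.0375 after thinning and -0.0439 as a mean over cells. The shares of all genes called under these alternatives are not given here, so the counts do not show whether the members moved more than other genes. The cause of these moves was not tested. Weighting each sum by its UMIs, an alternative chosen after seeing the data because sums differ in size, left each count of called members as it was.

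Named genes that changed sign were all uncalled. Under median ratio scaling the class difference was -0.0503 for Cox7a2, -0.0352 for Cox8a, -0.0786 for Uqcrh, -0.0284 for mt-Atp8, -0.0377 for mt-Nd3 and -0.0140 for mt-Nd6. After thinning it was 0.33 for Cox7b, 0.0222 for Sdhc, 0.0207 for Sdhd, -0.15 for mt-Atp8 and -0.0490 for mt-Nd3. With the stricter gate it was -0.0352 for Cycs and -0.0041 for mt-Atp8. Subsets of at least 3 UMIs of Wif1 or Thbs4 were not run, as Heart2 held 6 and 9 such cells.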
